A study of Mus musculus with 3 samples.

Results

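The genes of 3 families of extracellular proteases and protease inhibitors, ADAMTS and ADAMTS-like, MMP and TIMP, were followed across the fibroblast types of the neonatal mouse lung. Members were all rows of the count matrix whose symbol is Adamts, Adamtsl, Mmp or Timp plus a number, which gave 48 of 31730 genes: 19 Adamts, 5 Adamtsl, 20 Mmp and 4 Timp genes. The rule used names only and no measured value, but it was set with earlier results of these data known. Of these, 46 had 10 or more UMIs (unique molecular identifiers, one per captured transcript) over all cells. Values are given in full for 30 members, those with 20 or more UMIs per 1000000 in a library and type of 100 or more cells, or past 2-fold between gates. All cells came from lungs of Fgf18CreERT2/+; ROSATDTomato/+; PdgfrαEGFP/+ pups that were given tamoxifen on postnatal days 2 to 5 and collected on day 7. In such pups a Cre recombinase under Fgf18 control, active only with tamoxifen, switches on tdTomato in cells that use Fgf18 and in their descendants, while GFP reports Pdgfra. Cells were sorted into 3 gates, GFP-low tdT-negative (1284 cells), GFP-high tdT-negative (3347 cells) and GFP-high tdT-high (1511 cells), each of which gave 1 droplet library. Genotype and treatment were shared by all 3 libraries, so none is untreated. They are called the GFP-low, the tdT-negative GFP-high and the tdT-high library.

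ADAMTS enzymes are secreted metalloproteases that trim procollagens, cleave large proteoglycans such as versican and aggrecan, or act on fibrillin microfibrils, the scaffold on which elastic fibres form. ADAMTS-like proteins share their matrix-binding domains but lack the protease. MMPs are zinc-dependent proteases of collagens and other matrix and surface proteins, and TIMPs bind and block them, with TIMP-3 also blocking several ADAMTS enzymes. In the neonatal lung, fibroblasts lay down and remodel the elastin and collagen network on which new alveolar septa form.

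The libraries held 26586489, 68692834 and 34506226 UMIs in the order given above, with a median of 19629 to 22401 UMIs per cell. Levels below are UMIs summed over the cells of a group per 1000000 UMIs of that group (CPM), and an interval is the exact 95% interval of the counts, which covers counting error only. As every gate has a single library, no test was possible and no difference has a replicate check. The libraries shared 4 cell barcodes in all, 3 of them between the tdT-negative libraries. Cell types and their abbreviations are those of the deposited annotation: MyoFB (IMR, Int and Ter), MatFB (Type 1, Type 2, and Im,Cuff), AdvFB and the dividing DivFB types. Markers of alveolar myofibroblasts summed to between 16199 and 19536 CPM in the MyoFB types of the GFP-high libraries and to at most 2385 CPM in AdvFB and MatFB. Adventitial markers summed to 7580 CPM in GFP-low AdvFB, 13921 CPM in tdT-negative GFP-high AdvFB and at most 3129 CPM in the other types. Matrix fibroblast markers summed to 16547 CPM in GFP-low MatFB, 8149 CPM in tdT-negative GFP-high MatFB and at most 2972 CPM in AdvFB. A level summed over a gate cannot tell fewer expressing cells from less RNA in each cell.

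Among the 30 members given in full, 17 were highest in AdvFB, 9 in MatFB and 4 in MyoFB, by the mean of the 2 tdT-negative libraries. Of all 9197 genes that pass the same rule, 22.5% were highest in AdvFB, 28.2% in MatFB and 49.4% in MyoFB. A gene enters this tally through the groups where it is high, so both tallies are descriptions only. The same type led in both libraries for 25 of the 30, and for 14 the leading type was 2-fold or more above the second. AdvFB led for the procollagen-trimming Adamts2, for the aggrecanases Adamts4 and Adamts5, for the membrane protease Mmp16 and for Timp1 and Timp2. MatFB led for Adamts17, Adamtsl2, Mmp2 and Timp3, and MyoFB for Adamts6, Adamts10 and Adamts14. Adamts7 was counted under MyoFB, but MatFB led for it in the GFP-low library and its mean was 15.1 CPM in MyoFB and 15.0 CPM in MatFB. When the contractile AdvFB cells described further on were left out, Timp4 alone among the 30 changed its leading type, from AdvFB to MyoFB. Cells were left out of AdvFB only. The MyoFB mean of Timp4, 15.3 CPM against 2.14 CPM in the remaining AdvFB cells, rests in part on 66 GFP-low MyoFB cells. Smooth muscle markers summed to 6566 CPM in those 66 cells.

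**Figure D1:**
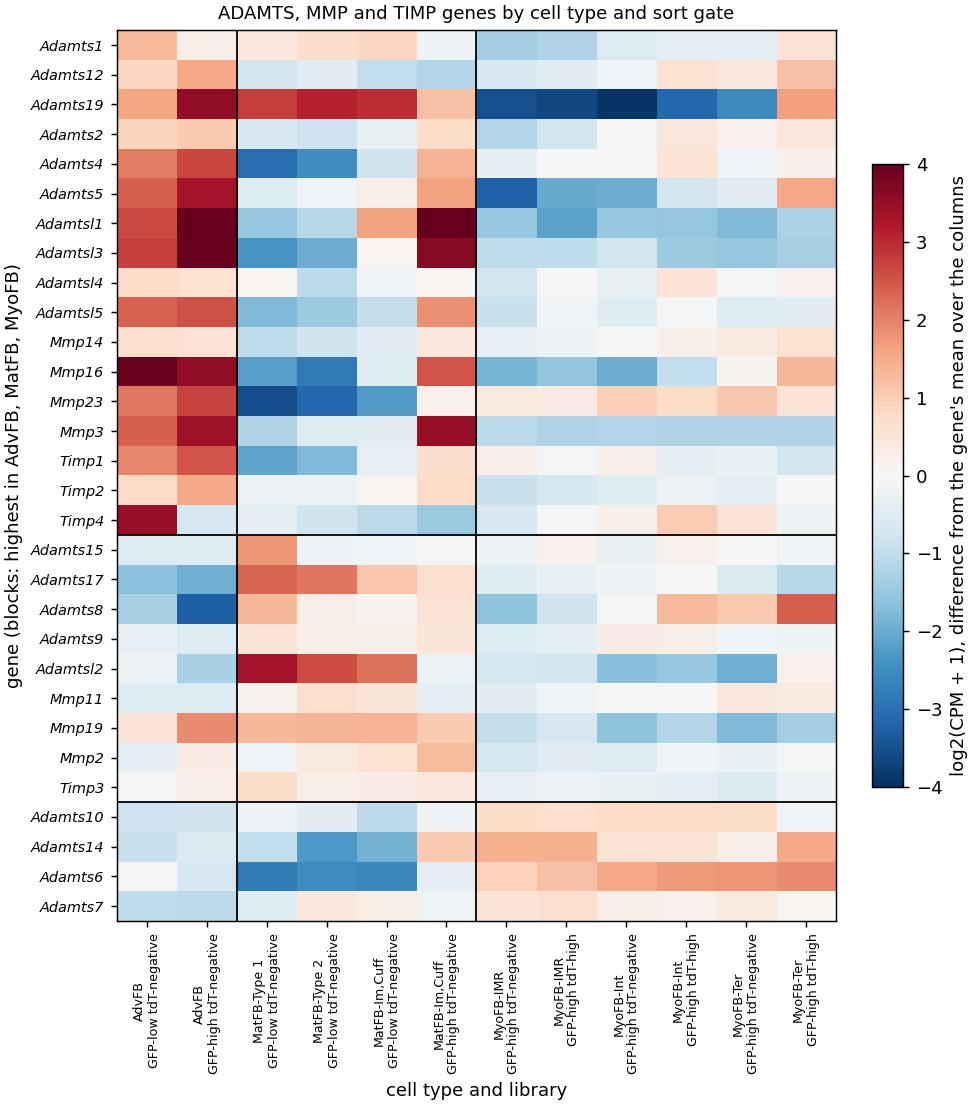
Colour shows log2(CPM + 1) of each of the 30 members (rows) minus its own mean over the 12 groups of cell type and library (columns), with the colour scale ending at 4 either way. The upper 17 rows are mostly warm in the AdvFB columns (Timp4 in the GFP-low one only), the middle 9 in the MatFB columns, with Adamts8 warmest in tdT-high MyoFB-Ter, and the bottom 4 in most MyoFB columns.

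Between types within a library, a gene was compared when both sides together held 20 or more UMIs, and was counted as higher or lower from a 2-fold ratio of CPM + 1. In the GFP-low library 21 of 38 compared members were higher in AdvFB than in MatFB and 6 lower, where 11.2% of all compared genes were higher and 11.7% lower. The members' median log2 ratio was 1.23 and that of all genes -0.12. Without contractile AdvFB cells 20 of 37 were higher and 6 lower, against 10.6% and 12.7% of all genes. Timp4 (0.91), Adamts14 (0.47), Adamts19 (-0.94) and Mmp25 were then no longer counted as past 2-fold. Timp2 and Mmp27 joined the higher members and Adamts15 the lower ones. Against MyoFB, in the tdT-negative GFP-high library, AdvFB was higher for 18 of 41 members and lower for 7, with 8.56% of all genes higher and 11.0% lower and medians of 0.80 and -0.27. MatFB exceeded MyoFB for 15 of 39 members and was lower for 3 there, with 7.97% of all genes higher and 10.9% lower and medians of 0.59 and -0.18. Of members with a mean of 10 CPM or more, 21 of 29, 22 of 30 and 13 of 28 passed 2-fold in these comparisons, against 21.5%, 20.4% and 17.9% of such genes. The last 2 comparisons share the MyoFB cells. MatFB differed in makeup between the libraries: Im,Cuff cells were 110 of 170 tdT-negative GFP-high MatFB cells and 205 of 1055 GFP-low ones. Transcripts of 15 immediate early and dissociation response genes moved with the types: they summed to 9717 and 10936 CPM in AdvFB and 7127 and 8851 CPM in MatFB-Im,Cuff of the tdT-negative libraries. They summed to 847 and 1121 CPM in GFP-low MatFB-Type 1 and Type 2, and to 2084 to 4546 CPM in the MyoFB types of the GFP-high libraries. Their part in the results was not tested.

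Adamts6, Adamts10 and Adamts17 code for ADAMTS proteases tied by genetics to fibrillin microfibrils, and they split between the types. Adamts6 lies on chromosome 13, 104287835 to 104496695 (GRCm38). In MyoFB, AdvFB and MatFB of the GFP-low library its level was 356, 121 and 18.8 CPM. In the tdT-negative GFP-high library these were 299, 73.6 and 72.1 CPM. MyoFB was thus the highest type in both libraries. Adamts10 (chromosome 17, 33524204 to 33553782) was at 221, 122 and 156 CPM in the same order in the GFP-low library, and at 373, 125 and 194 CPM in the tdT-negative GFP-high library, again with MyoFB highest.

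Adamts17 (chromosome 7, 66839735 to 67153171) went the other way. It reached 1380 CPM (1343 to 1418) in MatFB-Type 1, 1202 CPM in Type 2 and 594 CPM in Im,Cuff cells of the GFP-low library, against 251 CPM in MyoFB and 86.1 CPM in AdvFB. AdvFB over MatFB was 0.0775 (0.0691 to 0.0865). In the tdT-negative GFP-high library Adamts17 stood at 585, 214 and 69.1 CPM in MatFB, MyoFB and AdvFB, the same order. With every cell thinned to 5000 UMIs, 99.0% of MatFB-Type 1 cells held an Adamts17 UMI (exact 95% interval 96.4 to 99.9%), against 44.7% of tdT-negative GFP-high MyoFB-IMR cells and 16.2% of AdvFB cells of that library. Unthinned, these shares were 100%, 67.2% and 30.5%. An annotated gene on the same strand (Gm17909) overlaps Adamts17, and its reads cannot be told apart there.

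**Figure D2:**
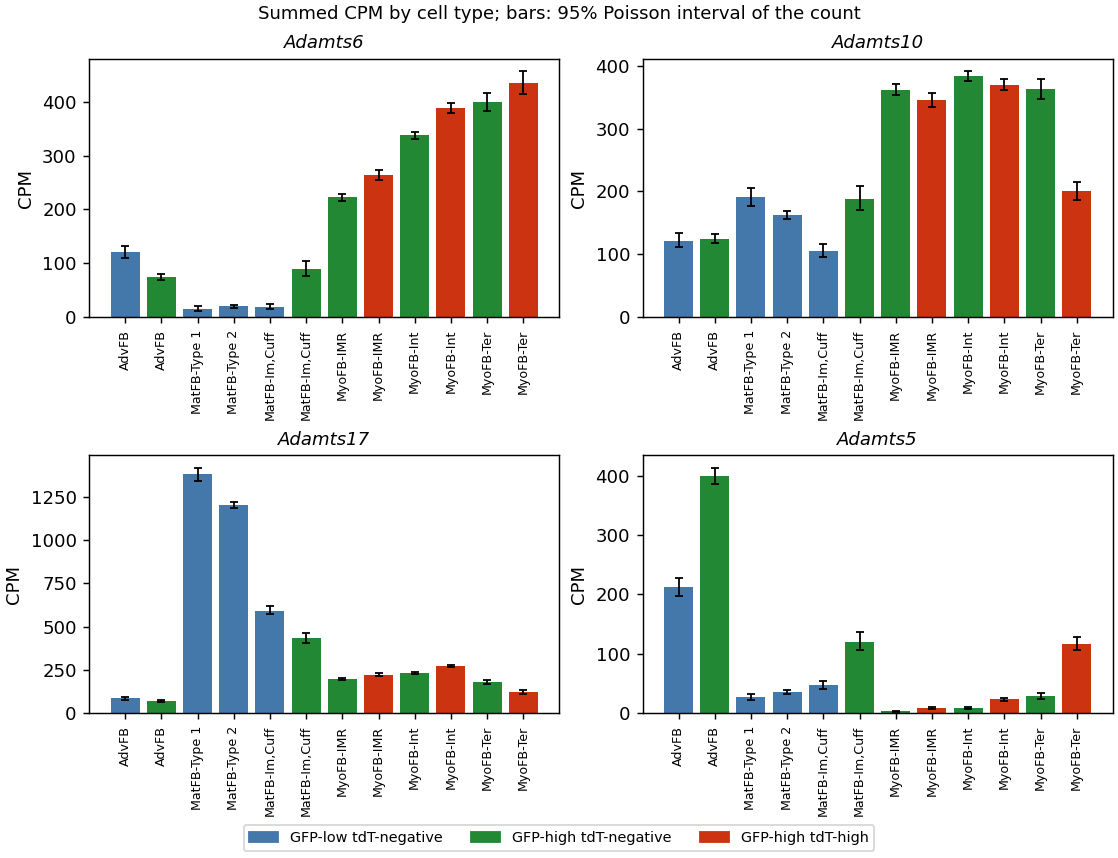
Bars give the CPM of Adamts6, Adamts10, Adamts17 and Adamts5 in groups of cell type and library, with the exact 95% Poisson interval. Adamts6 and Adamts10 are tallest in MyoFB columns, Adamts17 in MatFB-Type 1 at 1380 CPM, and Adamts5 in AdvFB at 399 CPM.

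Promoter sequences from RefSeq (GRCm38.p6) were at hand for 33 of the 48 members. Of these, 4 are shown to set members that led in different types side by side: Adamts17 (MatFB), Adamts14 (MyoFB), and Adamtsl3 and Mmp3 (both AdvFB). Each is the 250 bases before the RefSeq start, 5′ to 3′ on the gene's strand. Capitals mark an E-box CACGTG in Adamts17, GC boxes GGGCGG on either strand in Adamts14 and Adamtsl3, and in Mmp3 an AP-1 site TGANTCA and a TATA box TATAAA. The windows are chr7:66839485-66839734 for Adamts17, chr10:61273420-61273669 (minus strand) for Adamts14, chr7:82335444-82335693 for Adamtsl3 and chr9:7445572-7445821 for Mmp3.
Adamts17: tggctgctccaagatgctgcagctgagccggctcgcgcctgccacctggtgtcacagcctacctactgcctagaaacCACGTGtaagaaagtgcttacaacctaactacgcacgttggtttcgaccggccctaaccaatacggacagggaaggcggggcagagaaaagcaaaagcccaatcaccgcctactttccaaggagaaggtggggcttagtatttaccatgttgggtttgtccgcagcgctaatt
Adamts14: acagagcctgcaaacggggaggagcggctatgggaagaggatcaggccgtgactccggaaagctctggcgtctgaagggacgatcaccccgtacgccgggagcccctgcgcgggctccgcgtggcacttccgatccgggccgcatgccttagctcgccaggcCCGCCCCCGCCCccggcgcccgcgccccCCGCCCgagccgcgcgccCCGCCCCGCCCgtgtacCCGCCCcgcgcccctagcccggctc
Adamtsl3: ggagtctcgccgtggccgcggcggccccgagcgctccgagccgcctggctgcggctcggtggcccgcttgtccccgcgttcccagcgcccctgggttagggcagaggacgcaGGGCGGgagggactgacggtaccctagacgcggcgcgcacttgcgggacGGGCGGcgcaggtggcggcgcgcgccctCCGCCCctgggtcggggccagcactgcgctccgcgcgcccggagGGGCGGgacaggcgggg
Mmp3: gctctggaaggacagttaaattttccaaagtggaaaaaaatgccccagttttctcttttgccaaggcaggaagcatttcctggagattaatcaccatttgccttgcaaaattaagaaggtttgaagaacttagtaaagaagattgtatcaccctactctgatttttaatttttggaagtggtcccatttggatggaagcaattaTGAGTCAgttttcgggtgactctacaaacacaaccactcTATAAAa

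The share of G and C was 76.4% for Adamts14, 80.0% for Adamtsl3, 54.4% for Adamts17 and 37.6% for Mmp3. A GC box stood in 20 of the 33 member promoters (60.6%) and in 32.9% of 27025 promoters of the same length. An AP-1 site was found in 4 members (12.1% against 6.87%), a TATA box in 7 (21.2% against 13.0%), and CACGTG in 1, Adamts17 (3.03% against 6.05%). No member held a CArG box, the core of the serum response element, which 1.40% of promoters held. All motifs were read on both strands. A CArG box can hold the letters of the TATA box, no other listed motif contains another, and a match describes the letters only.

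Adamts2 and Adamts14 cut the amino-terminal propeptide from procollagens. Adamts2 (chromosome 11, 50602084 to 50807573) was highest in AdvFB, at 823 CPM in the GFP-low and 912 CPM in the tdT-negative GFP-high library. It stood at 277 and 636 CPM in MatFB and at 312 and 342 CPM in MyoFB of these libraries. Adamts14 (chromosome 10, 61197112 to 61273438) was highest in MyoFB in both, at 21.5 and 26.1 CPM, against 6.79 and 8.52 CPM in AdvFB and 2.85 and 19.3 CPM in MatFB. The fellow propeptidase Adamts3 was low, between 6.27 and 15.0 CPM in AdvFB, MatFB and MyoFB.

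Of the members that cleave versican and aggrecan, Adamts5 (chromosome 16, 85856173 to 85901828) stood at 212, 36.5 and 45.6 CPM in AdvFB, MatFB and MyoFB of the GFP-low library, and at 399, 105 and 8.79 CPM in the tdT-negative GFP-high library. In the latter AdvFB was 45.4-fold above MyoFB (41.2 to 50.1). Adamts4 was at 42.1, 1.57 and 8.04 CPM in the same order in the GFP-low library and at 65.2, 22.7 and 8.36 CPM in the tdT-negative GFP-high library. AdvFB was thus highest for both aggrecanases. Adamts8 had another order, with 12.0 and 2.43 CPM in AdvFB against 45.3 and 51.3 CPM in MatFB and 37.5 and 26.1 CPM in MyoFB. Adamts15 reached 172 CPM in MatFB-Type 1 and lay between 35.2 and 57.9 CPM in the other groups of 100 or more cells outside DivFB. Adamts9 was broad, from 185 CPM in tdT-negative GFP-high MyoFB-IMR to 401 CPM in MatFB-Type 1. Adamts1, which is also an immediate early gene in many cells, stood at 508, 333 and 260 CPM in AdvFB, MatFB and MyoFB of the GFP-low library. In the tdT-negative GFP-high library these were 249, 290 and 119 CPM, with MatFB highest.

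Adamts12 and Adamts7 both cleave the cartilage matrix protein COMP. Adamts12 was highest in AdvFB: at 335 CPM in the GFP-low library, 2.72-fold above MatFB, and at 552 CPM in the tdT-negative GFP-high library, 3.54-fold above MyoFB. Adamts7 was lowest in AdvFB, at 6.25 and 6.21 CPM, and lay between 12.1 and 18.1 CPM in MatFB and MyoFB.

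The ADAMTS-like genes also separated the types. Adamtsl2, whose product binds fibrillin and a TGF-beta binding protein, stood at 298, 181 and 133 CPM in MatFB-Type 1, Type 2 and Im,Cuff cells of the GFP-low library, against 24.7 CPM in AdvFB and 14.1 CPM in MyoFB. Adamtsl1 was at 142, 20.7 and 14.7 CPM in AdvFB, MatFB and MyoFB of the GFP-low library, and at 425, 256 and 6.80 CPM in the tdT-negative GFP-high library. Adamtsl3 was at 33.7, 1.09 and 0.670 CPM, and then at 165, 41.0 and 1.75 CPM. AdvFB was the highest type for both, and Adamtsl3 in tdT-negative GFP-high MyoFB was at 1.06% of its AdvFB level. Reads of Adamtsl1 and Adamtsl3 can be shared with genes that overlap them on the same strand (Sh3gl2 and Gm44919). Adamtsl4, a fibrillin-binding protein, differed less, with 57.9 and 51.6 CPM in AdvFB against 22.1 and 29.8 CPM in MatFB. Adamtsl5 was at 25.8 and 29.1 CPM in AdvFB and at 2.68 and 2.34 CPM in MyoFB.

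Adamts19, a protease with few known substrates, was led by different types in the 2 libraries. It was at 147, 53.5 and 20.1 CPM in MatFB, AdvFB and MyoFB of the GFP-low library. In the tdT-negative GFP-high library it was at 96.0, 208 and 0.532 CPM. MatFB was highest in the first and AdvFB in the second, and tdT-negative GFP-high MyoFB was at 0.255% of its AdvFB level.

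Mmp14 and Mmp2 were the broad MMPs. Mmp14 (chromosome 14, 54431612 to 54445364), a membrane collagenase that activates pro-MMP-2, stood at 506, 189 and 354 CPM in AdvFB, MatFB and MyoFB of the GFP-low library, and at 477, 393 and 296 CPM in the tdT-negative GFP-high library. Mmp2 (chromosome 8, 92827291 to 92853420), a gelatinase, stood at 232, 384 and 216 CPM, and at 371, 666 and 206 CPM. AdvFB thus led for Mmp14 and MatFB for Mmp2 in both libraries.

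The membrane-type Mmp16 was at 237 and 126 CPM in AdvFB, 1.95 and 40.7 CPM in MatFB and 28.8 and 2.75 CPM in MyoFB of the GFP-low and tdT-negative GFP-high libraries. AdvFB was 122-fold above MatFB in the GFP-low library (88.9 to 171). Mmp23, a membrane-anchored protease, was at 117 and 177 CPM in AdvFB and 40.2 and 45.6 CPM in MyoFB, against 2.52 and 23.0 CPM in MatFB. Both were AdvFB-led. Mmp11, or stromelysin-3, was at 16.6, 35.3 and 30.8 CPM in AdvFB, MatFB and MyoFB of the GFP-low library, where AdvFB was past 2-fold below MatFB, and at 16.7, 25.5 and 21.9 CPM in the tdT-negative GFP-high library. Mmp19 was low in MyoFB, at 2.01 and 2.89 CPM, against 24.2 and 29.5 CPM in MatFB and 13.0 and 35.3 CPM in AdvFB. Mmp3, stromelysin-1, was rare: 334 UMIs came from 72 cells, with 11.1 and 23.4 CPM in AdvFB. In the tdT-high library it had 0 UMIs, which allows up to 0.0869 CPM.

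All 4 inhibitors were measured. Timp2 (chromosome 11, 118301069 to 118355740) was at 682, 356 and 303 CPM in AdvFB, MatFB and MyoFB of the GFP-low library, and at 1143, 615 and 259 CPM in the tdT-negative GFP-high library. Timp1 was at 56.5, 4.70 and 8.71 CPM, and at 83.7, 19.9 and 16.1 CPM. AdvFB led for both inhibitors in both libraries. Timp3 (chromosome 10, 86300372 to 86349506) was at 230, 302 and 251 CPM and then 280, 354 and 187 CPM. Timp4 was at 45.4, 1.43 and 27.5 CPM in the GFP-low library and at 1.58, 0.311 and 3.13 CPM in the tdT-negative GFP-high library. Timp1, Timp3 and Timp4 overlap the synapsin genes Syn1, Syn3 and Syn2 on the opposite strand, Timp2 overlaps Cep295nl on its own strand, and the sources do not give whether counting used strand.

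The 3 MyoFB types were compared within each GFP-high library. From IMR to Int, 3 of 37 members were higher and 0 lower in the tdT-negative GFP-high library, against 1.13% and 1.83% of all genes. In the tdT-high library 5 of 35 were higher and 0 lower, against 1.96% and 3.83%. Adamts2 stood at 196, 419 and 505 CPM in IMR, Int and Ter of the tdT-negative GFP-high library and at 269, 604 and 606 CPM in the tdT-high library. Adamts8 stood at 9.71, 30.3 and 67.2 CPM and at 18.0, 79.1 and 173 CPM. Adamts5 stood at 3.29, 9.09 and 28.4 CPM and at 8.95, 23.3 and 117 CPM. All 3 genes were past 2-fold in Int over IMR in both libraries, and Adamts5 and Adamts8 were past 2-fold again in Ter over Int. In the tdT-high library Adamts12 (286 against 137 CPM) and Timp4 (7.34 against 3.01 CPM) also passed 2-fold in Int over IMR. The summed immediate early and dissociation list was 2084 CPM in IMR and 4089 CPM in Int of the tdT-negative GFP-high library, and 2503 and 4546 CPM in the tdT-high library. Adventitial markers summed to 54.4 and 95.4 CPM in IMR and Int of the tdT-negative GFP-high library and to 70.1 and 246 CPM in the tdT-high library, and matrix fibroblast markers to 108 and 215 CPM and to 152 and 399 CPM. All 3 lists were thus higher in Int. Smooth muscle markers were also higher, at 3243 and 5133 CPM in IMR and Int of the tdT-negative GFP-high library. In the tdT-high library they summed to 3053 and 3698 CPM. Alveolar myofibroblast markers were lower in Int, at 19536 and 18704 CPM and at 17720 and 16736 CPM, as were pericyte markers. The part of these lists in the differences was not tested.

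From Int to Ter, Adamts8, Adamts5 and Mmp16 were higher in the tdT-negative GFP-high library, 3 of 34 members with 0 lower, against 1.01% and 0.865% of all genes. In the tdT-high library 5 of 35 members were higher and 2 lower, against 3.37% and 3.37%. The 5 higher ones were Adamts8, Adamts5, Mmp16, Adamtsl2 and Adamts19. Mmp16 was at 1.74 CPM in Int and 10.7 CPM in Ter of the tdT-negative GFP-high library, and at 4.49 and 26.4 CPM in the tdT-high library. Adamts19 stood at 1.04 CPM in Int and 55.4 CPM in Ter of the tdT-high library, a ratio of 53.2 (33.3 to 90.2). It was at 0.185 and 2.07 CPM in the tdT-negative GFP-high library, where the 5 and 11 UMIs behind these values fell short of the minimum. Adamtsl2 was at 9.42 and 32.6 CPM in Int and Ter of the tdT-high library, but at 8.31 and 6.59 CPM in the tdT-negative GFP-high library. The lower members in the tdT-high library were Adamts17 (124 against 273 CPM in Ter and Int) and Timp4 (2.59 against 7.34 CPM). With only the Ter cells that held a Pdgfra UMI, 6 of 34 members were higher and 4 lower in the tdT-high library, against 3.94% and 10.0% of all genes. Adamts14 then joined the higher ones, the lower ones were Timp1, Timp4, Adamts20 and Mmp25, and Adamts17 was under 2-fold, at a log2 ratio of -0.92. These 46 tdT-high Ter cells held 4 UMIs of Timp1, 1 of Timp4 and 0 of Adamts20 and of Mmp25. In the tdT-negative GFP-high library 3 of 34 were then higher and 1, Adamtsl3, lower, against 0.834% and 1.06%. Adamtsl3 had 1 UMI in these Ter cells. From Int to Ter, adventitial markers summed to 95.4 and 259 CPM in the tdT-negative GFP-high library and 246 and 794 CPM in the tdT-high library, and matrix fibroblast markers to 215 and 386 CPM and to 399 and 757 CPM. Both lists were higher in Ter, and their part was not tested.

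Other members differed by less than 2-fold between neighbouring types. Adamts6 was at 222, 338 and 400 CPM in IMR, Int and Ter of the tdT-negative GFP-high library and at 264, 389 and 436 CPM in the tdT-high library. Mmp14 was at 256, 305 and 406 CPM and at 276, 370 and 490 CPM. Both genes had the same order of types in both libraries. Timp3 lay between 159 and 202 CPM in these 6 groups. Adamts14 had no common order, at 37.0, 19.9 and 15.4 CPM in the tdT-negative GFP-high and 37.3, 19.7 and 39.9 CPM in the tdT-high library.

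**Figure D3:**
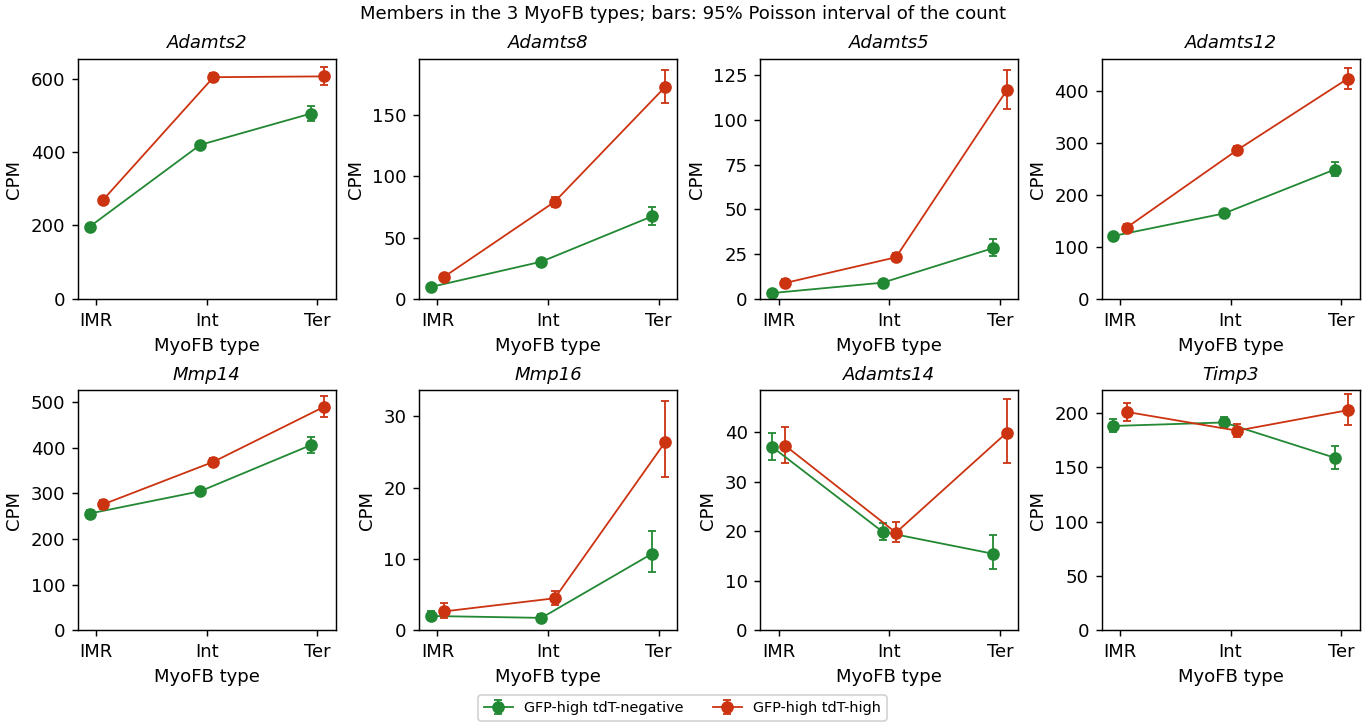
Points give the CPM of 8 members in the 3 MyoFB types of the tdT-negative GFP-high and tdT-high libraries, with exact 95% Poisson intervals. Adamts2, Adamts8, Adamts5, Adamts12 and Mmp14 are higher in Int than in IMR in both libraries, and the Ter points of Adamts5 lie apart, at 28.4 and 117 CPM.

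The first gate comparison set GFP-high against GFP-low cells, both without tdTomato. Over all cells 5 of 43 members were higher in the tdT-negative GFP-high library and 7 lower, against 6.81% and 5.72% of all genes, with median log2 ratios of 0.10 for members and 0.11 for all genes. Of members with a mean of 10 CPM or more 10 of 28 passed 2-fold, against 15.1% of such genes. The higher ones were Adamts6 (254 against 53.2 CPM, 4.77-fold, 4.52 to 5.04), Adamts10 (327 against 155 CPM), Adamts14 (23.2 against 4.51 CPM), Mmp23 (59.1 against 20.5 CPM) and Adamtsl3 (23.1 against 5.57 CPM). The lower ones were Adamtsl2 (14.7 against 157 CPM), Adamts17 (205 against 909 CPM), Adamts19 (29.9 against 126 CPM), Adamts1 (140 against 351 CPM), Mmp19 (7.96 against 21.3 CPM), Timp4 (2.84 against 8.99 CPM) and Adamts16. The 35 UMIs of Adamts16 came from 4 cells of the GFP-low library. MatFB made up 1055 of 1284 GFP-low cells and MyoFB 2659 of 3347 tdT-negative GFP-high cells, so gate and type cannot be told apart in these sums.

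The second gate comparison set tdT-high against tdT-negative cells, both GFP-high. Adamts8 was the 1 higher member of 42 (67.8 against 23.3 CPM, 2.91-fold, 2.73 to 3.11), and 6 were lower, against 0.693% and 2.01% of all genes. Of members with a mean of 10 CPM or more 6 of 27 passed 2-fold, against 2.76% of such genes. The 6 lower ones were Adamtsl1 (7.82 against 68.7 CPM), Adamtsl3 (3.85 against 23.1 CPM), Adamts19 (7.82 against 29.9 CPM), Mmp16 (7.33 against 19.2 CPM), Timp1 (11.5 against 24.4 CPM) and Mmp3 (0 against 4.11 CPM). All 6 were AdvFB-led genes, as were 17 of the 30 members given in full and 22.5% of all genes that pass the same rule. The leading type was itself taken partly from these tdT-negative AdvFB cells. AdvFB made up 328 of 3347 tdT-negative but 4 of 1511 tdT-high cells. The part of this makeup was not tested beyond the weighting that follows. With the types of the tdT-negative library weighted to those of the tdT-high library, 3 of 42 members were higher (Adamts8, Adamts5 and Adamts19) and 0 lower, against 0.792% and 0.0498% of all genes. The log2 ratio then was 1.28 for Adamts8, 1.53 for Adamts19, 0.97 for Mmp16 and 0.55 for Adamtsl3, so the last 3 turned direction. It was -0.16 for Adamtsl1, -0.47 for Timp1 and -0.49 for Mmp3, all under 2-fold.

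**Figure D4:**
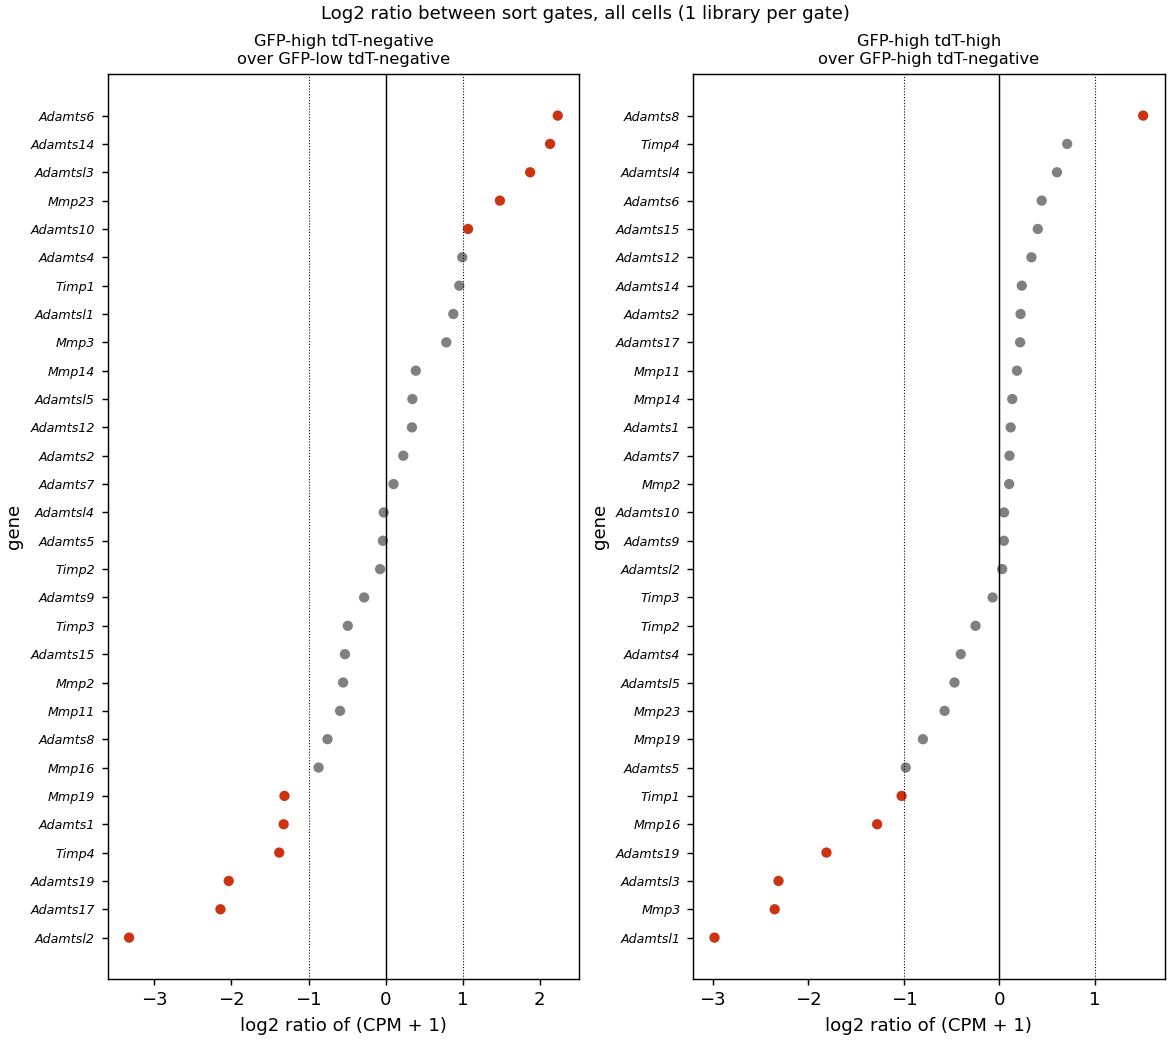
Each point is the log2 ratio of CPM + 1 of 1 of the 30 members between 2 gates over all cells, GFP-high over GFP-low on the left and tdT-high over tdT-negative on the right. Red points lie past 2-fold (dotted lines), with Adamts14 and Adamts6 among the highest and Adamtsl2 lowest on the left, and Adamts8 highest on the right.

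Adamts5 was higher in the tdT-high library within each MyoFB type, and Adamts8 within Int and Ter. Adamts5 was at 8.95 against 3.29 CPM in IMR (2.72-fold, 1.98 to 3.77), the 1 member past 2-fold of 35 with 0 lower, where 0.542% of all genes were higher and 0.142% lower. It was at 23.3 against 9.09 CPM in Int and 117 against 28.4 CPM in Ter (4.10-fold, 3.40 to 4.96). Adamts8 was at 18.0 against 9.71 CPM in IMR, under 2-fold, then 79.1 against 30.3 CPM in Int (2.61-fold, 2.39 to 2.84) and 173 against 67.2 CPM in Ter. With Mmp16 (4.49 against 1.74 CPM), these made 3 higher members of 36 in Int and 0 lower, against 1.01% and 0.488% of all genes. Adventitial markers summed to 70.1 CPM in tdT-high and 54.4 CPM in tdT-negative IMR cells, and to 246 and 95.4 CPM in Int cells. Matrix fibroblast markers summed to 152 and 108 CPM in IMR and to 399 and 215 CPM in Int. Both lists were higher in the tdT-high cells, and their part was not tested.

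In Ter 7 of 31 members were higher in the tdT-high library and 0 lower, against 4.45% and 3.44% of all genes. Besides Adamts5 and Adamts8 they were Adamts19 (55.4 against 2.07 CPM), Adamtsl2 (32.6 against 6.59 CPM), Adamts14 (39.9 against 15.4 CPM), Mmp16 (26.4 against 10.7 CPM) and Mmp17 (9.06 against 3.77 CPM). Within MyoFB-Ter, 144 of 190 tdT-high cells held no Pdgfra UMI, against 52 of 303 tdT-negative cells. Hhip, one of the alveolar myofibroblast markers, was at 1514 CPM without and 1341 CPM with a Pdgfra UMI in tdT-high Ter cells. It was at 411 and 302 CPM in the tdT-negative ones, so the gates differed in this marker on both sides of the split. The whole list of these markers went the other way, at 16199 CPM in tdT-high and 17199 CPM in tdT-negative Ter cells. The part of Hhip was not tested. In the tdT-high Ter cells without and with a Pdgfra UMI, Adamts19 was at 67.2 and 22.5 CPM, Adamts5 at 125 and 92.1 CPM and Adamts8 at 156 and 221 CPM. With only the cells that held a Pdgfra UMI, 6 of 27 members were higher and 2, Timp1 and Timp4, lower, against 4.04% and 6.58% of all genes. The tdT-high side was then 46 cells, with 4 UMIs of Timp1 and 1 of Timp4. The log2 ratio was then 1.88 for Adamts5, 1.72 for Adamts8 and 4.27 for Adamts19, the last from 1 UMI in the tdT-negative cells. Adventitial markers summed to 794 CPM in tdT-high Ter cells and 259 CPM in tdT-negative Ter cells, and matrix fibroblast markers to 757 and 386 CPM. Their part in these differences was not tested.

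GFP-high and GFP-low cells were also compared within the 2 types with 100 cells or more in both tdT-negative libraries. In MatFB-Im,Cuff 12 of 31 members were higher in the tdT-negative GFP-high library and 3 lower, against 8.33% and 5.77% of all genes, with medians of 0.68 and 0.05. Of the 12 higher members 10 were AdvFB-led, as were 17 of the 30 members given in full and 22.5% of all genes that pass the same rule. Among these 10, Adamtsl1 stood at 355 against 68.3 CPM, Adamtsl3 at 63.7 against 4.50 CPM, Mmp16 at 60.8 against 6.87 CPM and Adamts5 at 121 against 47.2 CPM. The lower ones were Adamtsl2 (24.1 against 133 CPM), Adamts19 (39.6 against 140 CPM) and Adamts1 (181 against 365 CPM). Of these 3 lower members 2, Adamts1 and Adamts19, were AdvFB-led as well. The leading type was itself taken partly from these Im,Cuff cells. Beside these, the adventitial list summed to 3129 CPM in tdT-negative GFP-high and 1887 CPM in GFP-low Im,Cuff cells, and the matrix fibroblast list to 5190 and 12379 CPM. The alveolar myofibroblast list summed to 2385 and 747 CPM and the pericyte list to 229 and 73.0 CPM. Their part was not tested.

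In AdvFB 5 of 36 members were higher in the tdT-negative GFP-high library and 6 lower, against 3.93% and 5.21% of all genes. Smooth muscle markers came to 3442 CPM among GFP-low AdvFB cells and to 101 CPM among tdT-negative GFP-high ones. In 48 of 148 GFP-low AdvFB cells, and 3 of 328 tdT-negative GFP-high ones, contractile transcripts took over 0.1% of the UMIs. This threshold marks a range and not a cell type, and 8 and 6 cells lay within 2-fold of it. Timp4 was at 138 CPM (118 to 162) in the 48 contractile GFP-low cells and at 3.54 CPM (1.62 to 6.73) in the other 100. Adamts1 was at 770 and 390 CPM in these 2 sets, and Mmp16 at 299 and 209 CPM. Of these 3, Timp4 passed 2-fold. Timp2 was lower in the contractile cells, at 326 and 843 CPM, as were Adamts19, at 2.63 and 76.4 CPM, and Adamtsl1, at 28.9 and 193 CPM.

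Without the contractile cells, 3 of 35 members were higher and 3 lower in tdT-negative GFP-high than in GFP-low AdvFB, against 3.24% and 2.81% of all genes. For the higher ones the log2 ratio was then 1.78 for Adamtsl3, 1.45 for Adamts19 and 1.15 for Adamtsl1, from 2.26, 1.94 and 1.57 with all cells. The lower members were Adamtsl2 at -1.50, Adamts8 at -1.35 and Adamts16. Timp4 then fell short of the UMI minimum, and Adamts1 had -0.65 against -1.03 with all cells. Neutrophil markers summed to 39.3 CPM in tdT-negative GFP-high AdvFB and to at most 3.35 CPM in the other types, and their part was not tested.

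**Figure D5:**
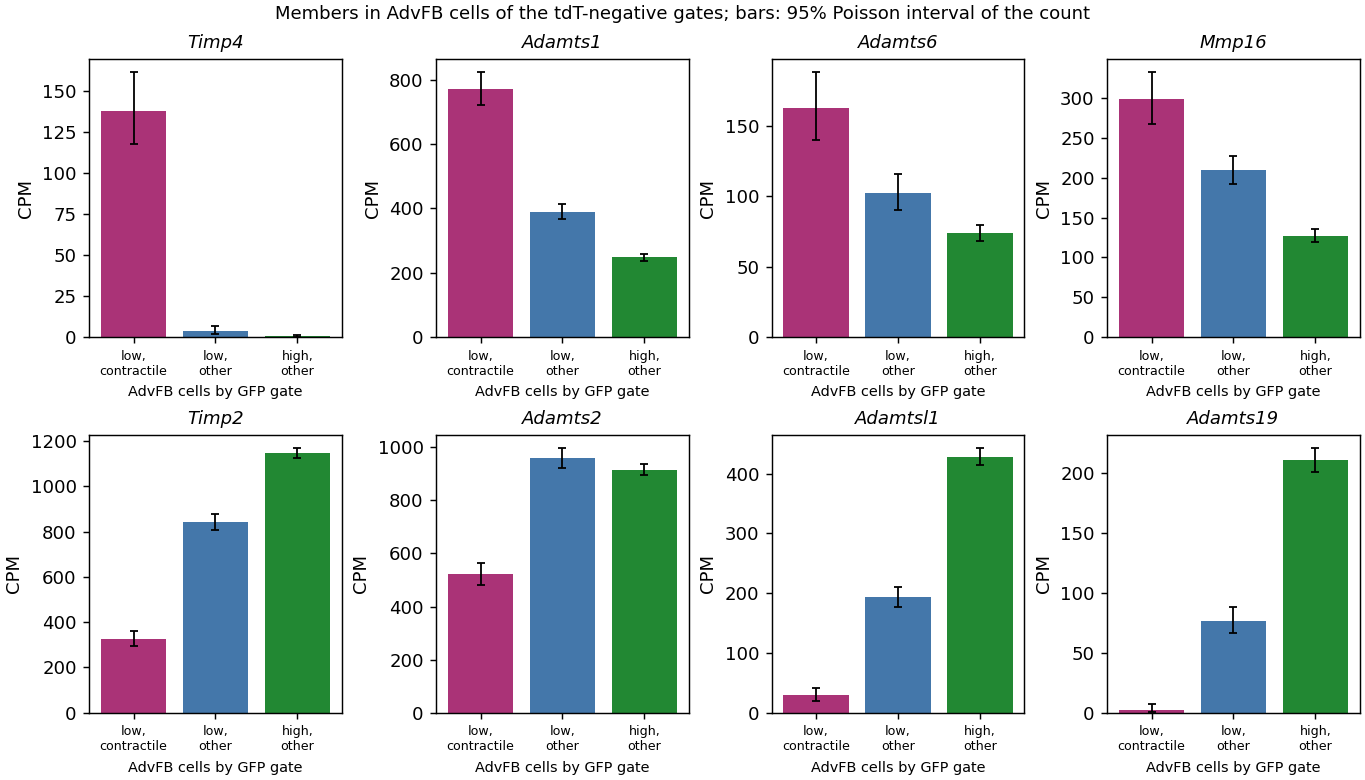
Bars give the CPM, with exact 95% Poisson intervals, of 8 members in GFP-low AdvFB cells over the contractile threshold, other GFP-low AdvFB cells and other tdT-negative GFP-high AdvFB cells. Timp4 stands at 138 CPM in the first set and 3.54 CPM in the second, and Adamts19 at 2.63 and 76.4 CPM.

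Dividing cells of the tdT-negative GFP-high library were set against MyoFB-IMR, with 2 of 37 members higher and 2 lower, against 4.63% and 3.88% of all genes. Adamts17 (82.0 against 196 CPM) and Adamts15 (a ratio of 0.488) were lower. Adamts20 (2.60 against 0.491 CPM, from 12 and 10 UMIs) and Mmp3 (from 35 and 2 UMIs, a ratio of 77.4, 19.9 to 664) were higher.

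Other genes of matrix proteolysis were counted in the same way. Of 35 other proteases and regulators, 9 were higher and 3 lower in GFP-high over GFP-low tdT-negative cells, and of 30 substrates and their partners 5 were higher and 3 lower, where 6.81% of all genes were higher and 5.72% lower. In AdvFB over MyoFB, 12 of 34 proteases and regulators were higher and 7 lower, and 16 of 29 substrates were higher and 3 lower, where 8.56% of all genes were higher and 11.0% lower. Fibrillar collagen genes, whose products Adamts2 trims, were among the higher substrates, with Col1a1 at 18483 against 767 CPM. Vcan, the gene of versican, was at 113 CPM in tdT-negative and 782 CPM in tdT-high Ter cells, against 36.6 and 101 CPM in Int. Eln, the elastin gene, was at 7131 and 15714 CPM in Int of these libraries and at 3239 and 6507 CPM in IMR.

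The 18 members not given in full were low. Mmp17 was at 12.2 CPM, Adamts20 at 5.70 CPM and Mmp25 at 5.16 CPM in GFP-low AdvFB. Mmp27 was at 4.62 CPM in tdT-negative GFP-high AdvFB. Mmp15 was at 3.91 CPM in tdT-negative GFP-high MyoFB and 0.852 CPM in AdvFB. The gelatinase Mmp9 had 57 UMIs over all cells, the collagenases Mmp13 and Mmp8 36 and 12, and Adamts18 11. Of the 2 members under 10 UMIs, 1 had 7 UMIs and 1 had 0.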

How the data were processed

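The libraries used 10x Genomics 3' chemistry, per the labels' protocols. The submitters' processing notes name Cell Ranger 7.0.0 and mm10. The authors' deposited matrix holds raw UMI counts for 31730 genes in 6142 cells, and their deposited cell table gives each cell's library, type and percent of mitochondrial UMIs. The sources used here do not give how cells were filtered or typed, whether intronic reads or strand were used, or whether a library pools pups. All deposited cells were kept and no doublets were removed.

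UMIs were summed per group and scaled to 1000000 (CPM), with exact Poisson intervals for levels, exact conditional binomial intervals for ratios and Clopper-Pearson intervals for shares of cells, all at 95%. Ratios used a pseudocount of 1, a minimum of 20 UMIs over both sides and a 2-fold threshold. A count of 0 allows up to 3 counts. The ratio script was tested on simulated data. Members, gene lists and comparisons were chosen with earlier results of these data known. Members were given in full from 20 CPM in a group of 100 cells, or past 2-fold between gates at 10 CPM. Genes that are no members were named from those past 2-fold at 50 CPM, and low members, the Pdgfra subset, the 10 CPM background, the leading types and the promoters shown were chosen after their values were seen. Coordinates are from GENCODE M21 on GRCm38. Alternatives were TMM and median-of-ratios scaling (edgeR 4.0.16, R 4.3.3), averaging CPM over cells, a larger pseudocount (5) or UMI minimum (100), other totals, stricter cell filters, subsets of cells and types weighted between libraries. Software was Python 3.11.15 with scipy 1.17.1, numpy 2.4.6, pandas 2.3.3 and, for figures, matplotlib 3.10.9.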

Additional observations from a re-analysis of the deposited data

Results flagged for a closer look

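Adamts19 had opposite directions between the GFP-high and GFP-low tdT-negative gates in the 2 types that both libraries held. Its log2 ratio of GFP-high over GFP-low was 1.94 within AdvFB (208 against 53.5 CPM) and -1.79 within MatFB-Im,Cuff (39.6 against 140 CPM). The difference between these was not tested, since each gate has 1 library. Without the contractile AdvFB cells the ratio within AdvFB was 1.45.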

How the results depend on the processing

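No paired analysis was possible because each gate has 1 library and the labels give no replicate numbers to pair. Counts of members past 2-fold were recomputed 114 times over comparisons and settings, of which 107 stayed within 1.5 times the main count. A pseudocount of 5 gave 4 members in place of 7 for tdT-high over tdT-negative cells, 2 in place of 4 for DivFB over MyoFB-IMR and 0 in place of 1 within MyoFB-IMR. A minimum of 100 UMIs gave 2 in place of 4 for DivFB over MyoFB-IMR and 9 in place of 15 within MatFB-Im,Cuff. Weighting the types gave 3 in place of 7 for tdT-high over tdT-negative cells, and turned the log2 ratios of Mmp16 to 0.97, Adamtsl3 to 0.55 and Adamts19 to 1.53. Leaving out contractile cells gave 6 in place of 11 within AdvFB. Of 1014 recomputed values of single members, 963 were past 2-fold in either direction and 3 reversed, those just named. Adamts19 counts in both, and the larger UMI minimum leaves kept values unchanged, so these stay past 2-fold by design. Of the 1014, 703 lay inside the counting interval of the main ratio and 308 outside it, with the 3 reversed counted apart. TMM scaling moved the median log2 ratio of all genes from -0.27 to -0.10 for AdvFB over MyoFB and from -0.09 to 0.01 for Int over IMR in the tdT-high library. Depth limits members near 1 CPM, and the GFP-low MyoFB values rest on 66 cells.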
